A study of Homo sapiens with 9 samples.

Results

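The genes described here encode the nuclear-encoded subunits of respiratory complexes I, II and III and of ATP synthase, and they were examined in HK1 cells after siRNA against the transcription factors E2F1 or E2F3. They were chosen by name as protein-coding genes of GENCODE 29 whose symbol is NDUFA, NDUFB, NDUFC, NDUFS or NDUFV followed by a number, begins with UQCR or ATP5, or is SDHA, SDHB, SDHC, SDHD or CYC1. Readthrough genes with a hyphen in their name were left out. The rule gave 72 genes of 58381 with an Ensembl identifier, of which 38 belong by name to complex I, 4 to complex II, 10 to complex III and 20 to ATP synthase. The rule takes in NDUFA4, which carries a complex I name but is known as a subunit of cytochrome c oxidase, ATP5IF1, the inhibitor protein of ATP synthase, and ATP5S, a factor that couples the parts of ATP synthase. It does not take in complex IV, whose genes are given as one of the lists of related genes.

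HK1 is an established line from a squamous nasopharyngeal carcinoma. All cells were grown in DMEM with serum and given an siRNA at 100 nM for 48 h, which was a non-targeting control, one against E2F1 or one against E2F3. Each group had 3 libraries, 9 in all, and each was sequenced from bulk RNA. The labels do not say whether a group's libraries stem from separate cultures, so p-values measure the spread between these libraries, which may be technical.

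The respiratory chain sits in the inner mitochondrial membrane. Complex I takes electrons from NADH and complex II from succinate, both pass them through ubiquinone to complex III, and cytochrome c carries them on to complex IV. Complexes I, III and IV pump protons across the membrane, and ATP synthase lets the protons flow back through a rotor to make ATP. Complex II is encoded entirely in the nucleus, whereas the other complexes combine nuclear-encoded subunits with a few made from mitochondrial DNA. E2F1 and E2F3 are transcription factors best known for genes of DNA replication and the cell cycle, and genes of mitochondrial function have also been described among E2F targets.

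Levels are in FPKM (fragments per kilobase of transcript, scaled to the fragments mapped), which correct for transcript length and library size. The files hold no counts, so absolute depth is unknown. The size of the smallest step between values of genes with a single exon put the depth of the libraries between 0.86 and 1.22 times that of the first control library. E2F1 itself measured 19.9 ± 0.335 FPKM (SD, n = 3) in control libraries and 7.48 ± 0.412 FPKM after E2F1 siRNA (log2 change -1.30 ± 0.0602 SE, adjusted p = 3.71e-07, limma), and E2F3 measured 25.4 ± 1.5 and 11.4 ± 1.09 FPKM after E2F3 siRNA (log2 change -1.10 ± 0.0720, adjusted p = 3.58e-06). All 6 epithelial markers examined passed the filter, but most were lower after siRNA. KRT8 measured 844 ± 1.61 FPKM in controls, 671 ± 17.1 under E2F1 siRNA and 644 ± 22.8 under E2F3 siRNA (log2 changes -0.33 and -0.39, adjusted p = 6e-05 and 2.48e-05). KRT5, KRT18 and TP63 also fell after both siRNAs, with log2 changes from -0.33 to -0.70 (adjusted p = 0.00047 at most). CDH1 fell by 0.86 (adjusted p = 1.89e-05) after E2F1 siRNA and had a log2 change of -0.20 (adjusted p = 0.0647) after E2F3 siRNA, and EPCAM passed in neither comparison (log2 changes 0.15 and 0.02). Of the markers of fibroblasts, leukocytes and endothelium, COL1A1 rose by 0.45 (adjusted p = 0.00179) after E2F1 siRNA, from 12.8 to 17.9 FPKM, and the others did not exceed 1.46 FPKM in any library. These marker changes moved with the same groups as the subunit changes, and their part in them was not tested. A change in bulk RNA does not tell a lower level in every cell from a loss in some of the cells.

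The subunit genes were among the more abundant mRNAs of HK1. In control libraries their median level was 115.8 FPKM against 12.8 FPKM over the 13777 genes that passed the filter of 1 FPKM in at least 3 of the 9 libraries, and the median member stood at the 93.5th percentile of those genes. ATP5MF, a small membrane subunit of ATP synthase, was the most abundant member at 1134 FPKM. NDUFA4L2, a paralog of NDUFA4 known from hypoxia, was the least abundant member tested at 4.69 FPKM. The median was 93.4 FPKM for complex I, 128 FPKM for complex II, 152 FPKM for complex III and 210 FPKM for ATP synthase. Of the 72 members 70 passed the filter. The other two were UQCRHL, an intronless copy of UQCRH, at no more than 0.06 FPKM in any library, and ATP5MGL, a copy of ATP5MG, listed at 0 in every library. The lowest members that passed, NDUFA4L2 at 2.8 to 5.57 FPKM and ATP5S at 8.31 to 11.5 FPKM, were above 1 FPKM in all 9 libraries. FPKM summed over all members took 1.59% ± 0.0177 (SD, n = 3) of all FPKM in controls, 1.65% ± 0.0211 under E2F1 siRNA and 1.64% ± 0.0364 under E2F3 siRNA.

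Most subunit genes moved little. After E2F1 siRNA 12 of 70 tested members were higher and 11 lower at an adjusted p under 0.05 (limma on log2(FPKM + 1), Benjamini-Hochberg adjustment over all genes tested), which is 17.1% and 15.7% of them. Over all genes tested the same rule called 20.5% higher and 17.3% lower. After E2F3 siRNA 16 members were higher and 7 lower (22.9% and 10.0%), against 21.1% and 16.4% of all genes. Between the knockdowns 11 members were higher and 11 lower with E2F3 siRNA than with E2F1 siRNA (15.7% each), against 23.5% and 22% of all genes. The members' shares thus lay at or below those of all genes, except for the share higher after E2F3 siRNA, 22.9% against 21.1%. Their median log2 change was 0.04 after either siRNA, beside 0.03 and 0.04 over all genes. The log2 change stayed within 0.2 of 0 for 50 of 70 members after E2F1 siRNA and for 48 of 70 after E2F3 siRNA. Over all genes it did so for 7003 and 6951 of 13777. Member changes beyond 0.5 in size included those of UQCR11 and ATP5MPL (E2F1 siRNA) and ATP5F1D (E2F3 siRNA). With the FPKM columns rescaled by RLE (median of ratios) factors, the member calls after E2F3 siRNA were 8 higher and 10 lower in place of 16 and 7. Over all genes they were then 2258 higher and 2793 lower in place of 2913 and 2266. The higher calls thus went from 56.2% to 44.7% of all calls, not of all genes tested. With upper-quartile scaling the member calls after E2F1 siRNA were 12 higher and 7 lower in place of 12 and 11. Over all genes they were 3146 and 2209 in place of 2830 and 2380.

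**Figure D1:**
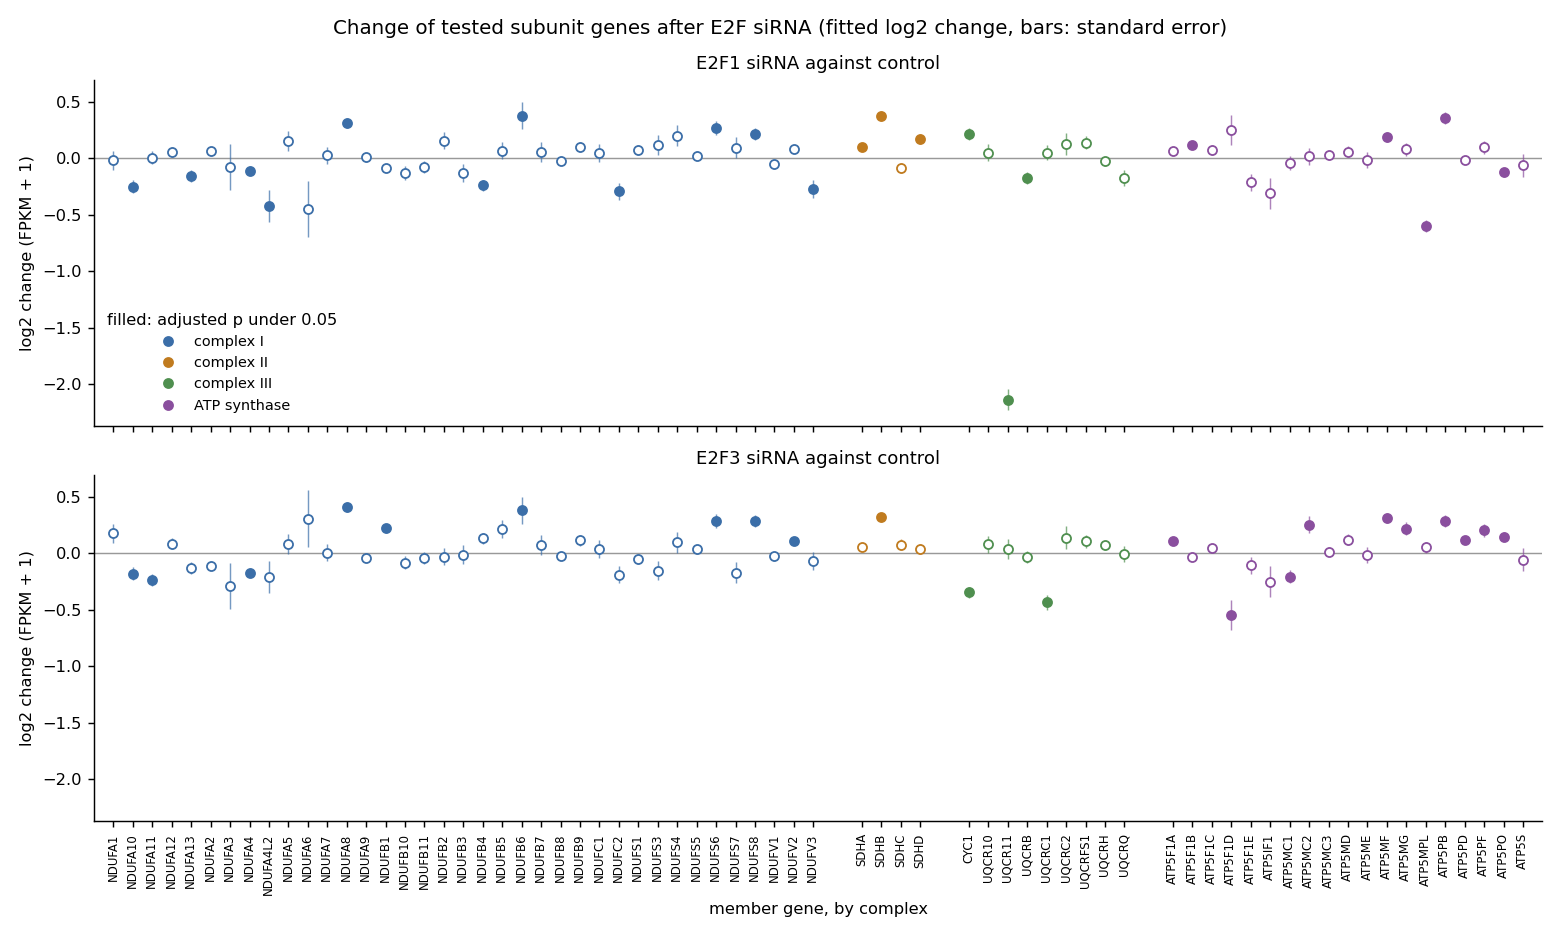
Fitted log2 change of FPKM + 1 (y axis) for each tested subunit gene reported here (x axis, by complex), for E2F1 siRNA against control (top) and E2F3 siRNA against control (bottom). Filled points passed an adjusted p of 0.05 and bars are standard errors. Most points lie within 0.2 of 0, and UQCR11 stands at -2.13 after E2F1 siRNA and at 0.04 after E2F3 siRNA.

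The members called higher after both siRNAs include NDUFA8, NDUFB6, NDUFS6 and NDUFS8 of complex I, SDHB of complex II, and ATP5MF and ATP5PB of ATP synthase. All of these but NDUFB6 passed in both comparisons under every alternative setting and with any 1 library left out. NDUFA10 and NDUFA4 were called lower after both siRNAs. CYC1 was higher after E2F1 siRNA and lower after E2F3 siRNA, and ATP5PO was lower after E2F1 siRNA and higher after E2F3 siRNA. The 2 comparisons share the control libraries, so their results are not independent.

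The promoters of 4 members called higher after both siRNAs and of UQCR11, the member with the largest change, are shown as examples of the motifs these genes hold. Sequences were taken from RefSeq on GRCh38.p14 and each runs from 150 bases before the transcription start to 30 bases after it, 5′ to 3′ on the strand of the gene. Capitals mark exact matches, on either strand, to the motifs of NRF1 (GCGCATGC), ETS factors such as GABPA (CCGGAAGT), YY1 (AAGATGGC), E2F (TTTCCCGC, TTTGGCGC or TTTCGCGC) and Sp1 (GGGGCGGG). NDUFB6 and NDUFS8 were also called higher after both siRNAs and had a promoter available. Their promoters held none of these motifs and are not shown. NRF1, GABPA and YY1 are known as regulators of nuclear genes for respiration. SDHB lies at chr1:17054003-17054182 on the minus strand and has a YY1 motif 11 bases past the start, and an NRF1 motif 200 bases before it is outside the stretch shown. NDUFA8 at chr9:122159750-122159929 on the minus strand has overlapping NRF1 motifs on both strands, 4 and 2 bases before the start. NDUFS6 at chr5:1801257-1801436 on the plus strand has an Sp1, an E2F and an NRF1 motif 98, 67 and 46 bases before the start. ATP5PB at chr1:111449314-111449493 on the plus strand has a YY1 motif on the other strand that begins 2 bases before the start. UQCR11 at chr19:1605433-1605612 on the minus strand has an ETS motif 117 bases before the start.
SDHB: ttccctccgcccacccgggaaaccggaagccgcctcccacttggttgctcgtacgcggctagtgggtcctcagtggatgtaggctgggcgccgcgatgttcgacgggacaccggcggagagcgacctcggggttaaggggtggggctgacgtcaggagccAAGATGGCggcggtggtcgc
NDUFA8: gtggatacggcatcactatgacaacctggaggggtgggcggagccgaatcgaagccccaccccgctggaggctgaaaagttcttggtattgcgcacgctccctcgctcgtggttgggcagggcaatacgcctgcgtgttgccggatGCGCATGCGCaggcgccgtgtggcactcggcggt
NDUFS6: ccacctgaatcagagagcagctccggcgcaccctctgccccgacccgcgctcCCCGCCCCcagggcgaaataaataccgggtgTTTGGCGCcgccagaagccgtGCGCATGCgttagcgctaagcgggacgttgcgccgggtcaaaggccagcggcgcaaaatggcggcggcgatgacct
ATP5PB: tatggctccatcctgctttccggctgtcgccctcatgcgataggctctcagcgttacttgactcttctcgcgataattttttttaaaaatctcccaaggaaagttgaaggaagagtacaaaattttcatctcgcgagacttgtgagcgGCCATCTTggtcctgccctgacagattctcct
UQCR11: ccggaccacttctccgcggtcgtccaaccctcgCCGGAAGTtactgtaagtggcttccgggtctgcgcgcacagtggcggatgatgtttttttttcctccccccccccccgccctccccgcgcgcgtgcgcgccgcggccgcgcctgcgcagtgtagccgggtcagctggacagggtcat

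Promoter stretches from 250 before to 50 bases after the start were found for 55 of the 72 members and for 15842 protein-coding genes in all. The NRF1 motif was in 11 of the 55 member promoters (20%) and in 4.26% of all promoters, and the YY1 motif in 11 (20%) and 3.91%. The ETS motif was in 8 member promoters (14.5%) and in 6.19% of all, and an E2F motif in 4 (ATP5MG, NDUFA13, NDUFC1 and NDUFS6, 7.27%) and 3.77%. The CCAAT box (CCAATC or CCAATG) was in 21.8% of member promoters and 27.9% of all, and the Sp1 motif in 20% and 31.4%. Of the 6 matched members called higher after both siRNAs, 3 held the NRF1 motif, 2 the YY1 motif, 1 an E2F motif and 0 the ETS motif. A match to these letters is a description of the sequence, and binding was not measured. The members with no promoter in the table include ATP5F1B, ATP5F1D, ATP5MC3, ATP5MF, ATP5MGL, ATP5S, CYC1, NDUFA4, NDUFA4L2, NDUFB5, NDUFB9, NDUFC2, NDUFS5, SDHC, UQCRB and UQCRHL.

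The core subunits of complex I carry the flavin and the iron-sulfur clusters or the parts next to them. NDUFS8, which holds iron-sulfur clusters, measured 90.6 to 99.3 FPKM in controls, 106 to 114 under E2F1 siRNA and 112 to 123 under E2F3 siRNA. Both siRNA groups lay above the control range. Its log2 change was 0.22 (adjusted p = 0.00882) after E2F1 siRNA and 0.29 (adjusted p = 0.00210) after E2F3 siRNA. NDUFV2, which holds an iron-sulfur cluster beside the flavin, had a log2 change of 0.11 after E2F3 siRNA. The call of NDUFV2, at an adjusted p of 0.0495, was lost in every fit that left out 1 library. Between the knockdowns NDUFS1, NDUFS3 and NDUFS7 were called lower with E2F3 siRNA, with log2 differences of -0.12, -0.27 and -0.27. With 1 library left out, 0 to 2 core subunits were called lower in that comparison. Exons of NDUFS3 overlap those of PTPMT1 on the same strand, which measured 75.4 FPKM in control libraries against 72.8 FPKM for NDUFS3.

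Among the accessory subunits, which surround the core, NDUFA8 and NDUFS6 were higher after both siRNAs. NDUFA8 (chr9:122144058-122159819, minus strand) is a subunit on the intermembrane-space side. It measured 90.4, 88.4 and 85.5 FPKM in controls, 107, 107 and 115 under E2F1 siRNA and 114, 122 and 117 under E2F3 siRNA. No siRNA library reached down to the control range. The log2 change was 0.31 ± 0.0459 (adjusted p = 0.000529) after E2F1 siRNA and 0.41 ± 0.0459 (adjusted p = 0.000101) after E2F3 siRNA. NDUFS6, a zinc-binding subunit needed late in assembly, measured 108 to 115 FPKM in controls, 128 to 139 under E2F1 siRNA and 123 to 146 under E2F3 siRNA (log2 changes 0.27 and 0.28, adjusted p = 0.00688 and 0.00547). NDUFB6, a membrane-arm subunit, had log2 changes of 0.38 in both comparisons with an SE of 0.121, and its calls were lost in 5 and 4 of the 9 fits that left out 1 library.

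NDUFB4 and NDUFB1 separated the knockdowns. NDUFB4, a membrane-arm subunit (chr3:120596309-120602500, plus strand), measured 211, 222 and 216 FPKM in controls, 177, 192 and 181 under E2F1 siRNA and 227, 231 and 255 under E2F3 siRNA. The E2F1 siRNA libraries lay below and the E2F3 siRNA libraries above all control libraries. NDUFB4 fell by 0.24 on the log2 scale (adjusted p = 0.00418) after E2F1 siRNA, its change of 0.13 after E2F3 siRNA had an adjusted p of 0.0641, and the difference of 0.37 between the knockdowns passed (adjusted p = 0.000253). Without E2F3 siRNA replicate 1 the change against control after E2F3 siRNA passed too (adjusted p = 0.0463). NDUFB1, a small membrane-arm subunit, measured 332 to 339 FPKM in controls, 309 to 320 under E2F1 siRNA and 371 to 403 under E2F3 siRNA. It rose by 0.22 (adjusted p = 0.00142) after E2F3 siRNA, and the difference between the knockdowns was 0.31 (adjusted p = 0.000131).

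Falls in complex I were small. NDUFA10, an accessory subunit of the membrane arm, measured 58.9 to 67.8 FPKM in controls, 50.7 to 54.0 under E2F1 siRNA and 53.8 to 56.4 under E2F3 siRNA. Both siRNA groups lay below the control range. It fell by 0.25 (adjusted p = 0.00657) and by 0.18 (adjusted p = 0.0303) on the log2 scale, and the second call was lost without control replicate 2, E2F3 siRNA replicate 1 or E2F3 siRNA replicate 2. NDUFA11, an accessory subunit next to complex III in the supercomplex, measured 411 to 423 FPKM in controls, 395 to 436 under E2F1 siRNA and 339 to 385 under E2F3 siRNA. The E2F3 siRNA libraries were the lowest 3 of the 9, and the gene fell by 0.23 (adjusted p = 0.00805) against control and by 0.24 (adjusted p = 0.00564) against E2F1 siRNA. NDUFA4 measured 77.2 to 78.6 FPKM in controls, 71.0 to 73.9 under E2F1 siRNA and 67.5 to 71.2 under E2F3 siRNA. Its log2 changes were -0.11 (adjusted p = 0.0467) and -0.17 (adjusted p = 0.00631), and the first was lost in 8 of the 9 fits that left out 1 library. NDUFA4L2 had a log2 change of -0.42 after E2F1 siRNA (adjusted p = 0.0401) that was lost in 7 of these fits. Its exons overlap those of SHMT2 on the other strand, which measured 236 FPKM in control libraries, and no source used here says whether reads were counted by strand. SHMT2 had log2 changes of -0.36 after E2F1 siRNA and -0.79 after E2F3 siRNA, beside -0.42 and -0.21 for NDUFA4L2. Whether SHMT2 reads enter the NDUFA4L2 values was not tested.

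NDUFC2 and NDUFV3 were also called lower after E2F1 siRNA, by 0.29 (adjusted p = 0.0131) and 0.27 (adjusted p = 0.0202). NDUFC2, a membrane-arm subunit, kept that call in every leave-out fit and lost it without the filter on low values. NDUFV3, an accessory subunit of the NADH-binding module, lost it in 4 leave-out fits. NDUFA6, a LYR-motif subunit, spread widely within each group, from 16.3 to 27.9 FPKM in controls, 11.1 to 20.3 under E2F1 siRNA and 22.0 to 34.0 under E2F3 siRNA. Its difference of 0.75 between the knockdowns (SE 0.249, adjusted p = 0.0324) was lost in 3 leave-out fits. Over complex I as a whole, 5 of 38 genes were called higher and 7 lower after E2F1 siRNA. For E2F3 siRNA these counts were 7 and 3. All genes tested stood at 20.5% higher and 17.3% lower in the first comparison, 21.1% and 16.4% in the second. In either direction 31.6% and 26.3% of complex I genes were called, beside 37.8% and 37.6% of all genes. The median log2 change of complex I was 0.03 and -0.0026. Its highest member, NDUFS5, was at 480 FPKM in controls, 488 under E2F1 siRNA and 492 under E2F3 siRNA.

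Complex II is also succinate dehydrogenase of the tricarboxylic acid cycle. It had 3 of its 4 genes called higher after E2F1 siRNA, against 20.5% of all genes tested. SDHB, its iron-sulfur subunit (chr1:17018722-17054170, minus strand, ENSG00000117118.9), measured 137, 129 and 138 FPKM in controls, 175, 177 and 172 under E2F1 siRNA and 161, 169 and 173 under E2F3 siRNA. All 6 siRNA libraries lay above all control libraries. SDHB rose by 0.38 ± 0.0420 (adjusted p = 9.00e-05) after E2F1 siRNA and by 0.32 ± 0.0420 (adjusted p = 0.000288) after E2F3 siRNA on the log2 scale.

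The other complex II genes had smaller log2 changes. SDHA, the flavoprotein that oxidises succinate, measured 148, 149 and 151 FPKM in controls, 161, 161 and 158 under E2F1 siRNA and 153, 158 and 156 under E2F3 siRNA. The 3 groups did not overlap, with E2F3 siRNA between the other two. Its log2 change was 0.10 (adjusted p = 0.0302) after E2F1 siRNA and 0.06 (adjusted p = 0.165) after E2F3 siRNA. The call was lost in 6 of the 9 fits that left out 1 library and with RLE scaling, and pseudogenes named after SDHA summed to 14.6 FPKM, so reads could have been split with them. SDHD, a membrane anchor, measured 118 to 125 FPKM in controls, 130 to 144 under E2F1 siRNA and 122 to 129 under E2F3 siRNA. It had a log2 change of 0.17 (adjusted p = 0.0154) after E2F1 siRNA, lost without control replicate 1, E2F1 siRNA replicate 1 or E2F1 siRNA replicate 2, and of 0.04 (adjusted p = 0.546) after E2F3 siRNA. SDHC, the other membrane anchor, had log2 changes of -0.09 (adjusted p = 0.192) and 0.07 (adjusted p = 0.252). With 1 library left out, the number of complex II genes called higher after E2F1 siRNA ranged from 1 to 3.

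Complex III held the largest change of any member. UQCR11, its smallest subunit (chr19:1597172-1605490, minus strand, ENSG00000127540.11), measured 92.1, 89.0 and 96.2 FPKM in controls, 20.5, 22.4 and 18.1 under E2F1 siRNA and 84.6, 106 and 95.4 under E2F3 siRNA. The E2F1 siRNA libraries lay far below all others, whereas E2F3 siRNA and control overlapped. UQCR11 fell by 2.13 on the log2 scale (SE 0.0904, adjusted p = 2.27e-07) after E2F1 siRNA, its change after E2F3 siRNA was 0.04 (adjusted p = 0.766), and the difference between the knockdowns was 2.17 (adjusted p = 1.31e-07). A readthrough gene on the same strand, AC005943.1, overlaps its exons and measured 3.42 FPKM in controls, 1.94 under E2F1 siRNA and 2.46 under E2F3 siRNA.

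CYC1 and UQCRC1 fell after E2F3 siRNA. CYC1, cytochrome c1, which hands electrons to cytochrome c, measured 151, 147 and 157 FPKM in controls, 177, 180 and 171 under E2F1 siRNA and 111, 127 and 119 under E2F3 siRNA. The 3 groups did not overlap, with E2F1 siRNA above and E2F3 siRNA below control. The log2 change was 0.21 ± 0.0520 (adjusted p = 0.00958) after E2F1 siRNA, -0.35 ± 0.0520 (adjusted p = 0.000644) after E2F3 siRNA and -0.56 (adjusted p = 2.11e-05) between the knockdowns. UQCRC1, a core protein of complex III (chr3:48599002-48610976, minus strand), measured 263, 260 and 234 FPKM in controls, 260, 244 and 281 under E2F1 siRNA and 176, 193 and 190 under E2F3 siRNA. The E2F3 siRNA libraries were the lowest 3 of the 9, and control and E2F1 siRNA overlapped. UQCRC1 fell by 0.43 ± 0.0639 (adjusted p = 0.000571) after E2F3 siRNA and differed by -0.49 on the log2 scale from E2F1 siRNA (adjusted p = 0.000211).

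The remaining complex III genes varied within narrow bounds. UQCRB, which binds ubiquinone, had a log2 change of -0.17 after E2F1 siRNA (adjusted p = 0.0248) that was lost in 4 leave-out fits. UQCRH, the hinge protein and highest member of the complex, measured 543 FPKM in controls, 532 under E2F1 siRNA and 570 under E2F3 siRNA, and passed in no comparison. UQCRC2, UQCRFS1, UQCR10 and UQCRQ passed in no comparison against control. Over the 9 tested genes 1 was called higher and 2 lower after E2F1 siRNA. For E2F3 siRNA the counts were 0 and 2 (limma, also 0 and 2 at an unadjusted p under 0.05). In either direction 33.3% and 22.2% of these genes were called, beside 37.8% and 37.6% of all genes tested.

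**Figure D2:**
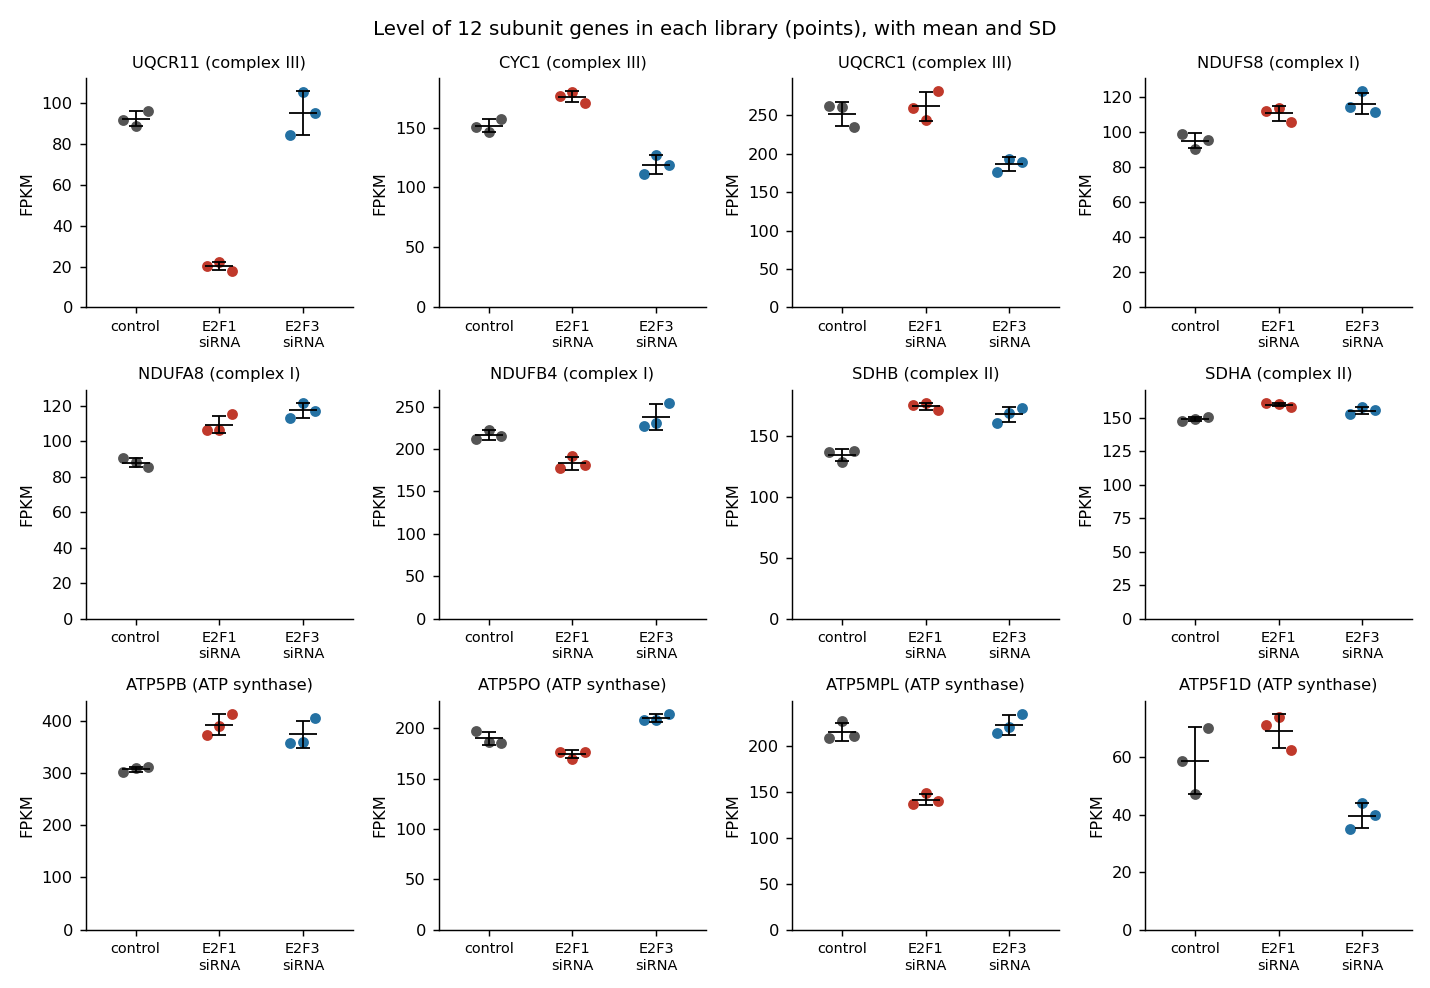
FPKM (y axis, from 0) of 12 subunit genes in each library (points) of the control, E2F1 siRNA and E2F3 siRNA groups, with the mean and SD of 3 libraries in black. UQCR11 and ATP5MPL are low only in the E2F1 siRNA libraries, UQCRC1 is lowest in the E2F3 siRNA libraries, NDUFS8 and SDHB are higher in both siRNA groups, and CYC1 lies above control after E2F1 siRNA and below it after E2F3 siRNA.

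ATP synthase had 8 of 19 tested genes called higher and 2 lower after E2F3 siRNA, and 3 higher and 2 lower after E2F1 siRNA. Over all genes tested 21.1% were higher and 16.4% lower after E2F3 siRNA, and 20.5% and 17.3% after E2F1 siRNA. The peripheral stalk holds the catalytic head still while the rotor turns, and all 4 of its genes were called higher after E2F3 siRNA (ATP5PB, ATP5PD, ATP5PF and ATP5PO), with log2 changes of 0.12 to 0.28. With RLE scaling 1 of these 4 calls was left (ATP5PB), and 2 of the 19 genes of the whole enzyme were then called higher and 2 lower. After E2F1 siRNA 1 stalk gene was called higher and 1 lower.

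ATP5PB, subunit b of the stalk (chr1:111448864-111462773, plus strand, ENSG00000116459.10), measured 301, 309 and 311 FPKM in controls, 374, 391 and 413 under E2F1 siRNA and 358, 360 and 404 under E2F3 siRNA. All 6 siRNA libraries lay above all control libraries. ATP5PB rose by 0.35 ± 0.0539 (adjusted p = 0.000642) after E2F1 siRNA and by 0.28 ± 0.0539 (adjusted p = 0.00266) after E2F3 siRNA. ATP5PO, the stalk subunit known for oligomycin sensitivity, measured 198, 186 and 186 FPKM in controls, 176, 170 and 177 under E2F1 siRNA and 208, 209 and 215 under E2F3 siRNA. The groups did not overlap, with E2F1 siRNA below and E2F3 siRNA above control. Its log2 change was -0.12 (adjusted p = 0.0258) after E2F1 siRNA, 0.15 (adjusted p = 0.0118) after E2F3 siRNA and 0.27 (adjusted p = 0.000280) between the knockdowns. The first of these calls was lost without control replicate 1 or E2F1 siRNA replicate 2. ATP5PD measured 308 to 320 FPKM in control libraries and 336 to 347 after E2F3 siRNA (log2 change 0.12, adjusted p = 0.0108), and ATP5PF 198 to 212 and 222 to 244 (log2 change 0.20, adjusted p = 0.0192). The call of ATP5PF was lost without control replicate 1 or 3 or E2F3 siRNA replicate 2 or 3.

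Among the small subunits of the membrane part, ATP5MF rose and ATP5MPL fell. ATP5MPL, a small proteolipid of the membrane part (chr14:103912288-103928269, minus strand), measured 208, 226 and 210 FPKM in controls, 136, 148 and 140 under E2F1 siRNA and 213, 220 and 235 under E2F3 siRNA. The E2F1 siRNA libraries lay below all others, and control and E2F3 siRNA overlapped. ATP5MPL fell by 0.60 ± 0.0512 (adjusted p = 1.59e-05) after E2F1 siRNA and was higher by 0.65 after E2F3 siRNA than after E2F1 siRNA (adjusted p = 6.84e-06). ATP5MF, subunit f, measured 1081 to 1191 FPKM in controls, 1268 to 1325 under E2F1 siRNA and 1350 to 1471 under E2F3 siRNA. Its 3 groups did not overlap, and it rose by 0.19 (adjusted p = 0.00853) and 0.31 (adjusted p = 0.000514). ATP5MG, subunit g, measured 89.4 to 95.4 FPKM in control libraries and 99.4 to 112 after E2F3 siRNA (log2 change 0.22, adjusted p = 0.0147, lost without control replicate 1 or E2F3 siRNA replicate 3 and with RLE scaling).

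The c-ring turns with the proton flow, and its single protein is encoded by the paralogs ATP5MC1, ATP5MC2 and ATP5MC3. ATP5MC1 had a log2 change of -0.21 (adjusted p = 0.0233) and ATP5MC2 of 0.25 (adjusted p = 0.0257) after E2F3 siRNA, and ATP5MC3 of 0.01 (adjusted p = 0.827). The first 2 calls were lost in 4 and 3 leave-out fits. After E2F1 siRNA the log2 changes of the 3 paralogs lay between -0.04 and 0.03 and 0 passed in limma (adjusted p = 0.621 to 0.858, and 0 at an unadjusted p under 0.05). Their control means were 375 FPKM, 210 FPKM and 202 FPKM.

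In the catalytic head, ATP5F1D, the delta subunit of the central stalk (chr19:1241746-1244826, plus strand), was lower after E2F3 siRNA. It measured 58.9, 47.2 and 70.4 FPKM in controls, 71.3, 74.0 and 62.6 under E2F1 siRNA and 35.1, 44.0 and 40.0 under E2F3 siRNA. The control libraries spread widely and overlapped those of E2F1 siRNA, but no E2F3 siRNA library reached them. ATP5F1D fell by 0.54 ± 0.134 (adjusted p = 0.0104) against control and differed by -0.79 on the log2 scale from E2F1 siRNA (adjusted p = 0.00101). ATP5F1B, the catalytic beta subunit, measured 754 to 794 FPKM in controls, 830 to 854 under E2F1 siRNA and 740 to 792 under E2F3 siRNA. Its log2 change of 0.12 after E2F1 siRNA (adjusted p = 0.0248) was lost in 4 leave-out fits, and its difference of -0.15 between the knockdowns (adjusted p = 0.00711) was lost in 0. ATP5IF1, which blocks the enzyme when it runs in reverse, measured 85.1 to 126 FPKM in controls, 71.7 to 90.5 under E2F1 siRNA and 80.9 to 85.8 under E2F3 siRNA. Its log2 changes of -0.31 (adjusted p = 0.0964) and -0.25 (adjusted p = 0.170) did not pass, and the first passed without control replicate 2.

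FPKM summed over complex II was 514 to 517 in controls, 562 to 584 under E2F1 siRNA and 553 to 570 under E2F3 siRNA, with no control library in the range of either siRNA group. The sum over complex III was 1774 to 1838 in controls, 1706 to 1753 under E2F1 siRNA and 1648 to 1852 under E2F3 siRNA, and its mean was 1816 in control and 1724 after E2F1 siRNA, beside 92.4 and 20.3 FPKM for UQCR11 alone. The sum over complex I, 5192 to 5250 in control libraries, overlapped with both siRNA groups. The sum over ATP synthase was 5132 to 5341 in controls, 5432 to 5556 under E2F1 siRNA and 5477 to 5795 under E2F3 siRNA. These sums are descriptions and were not tested.

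**Figure D3:**
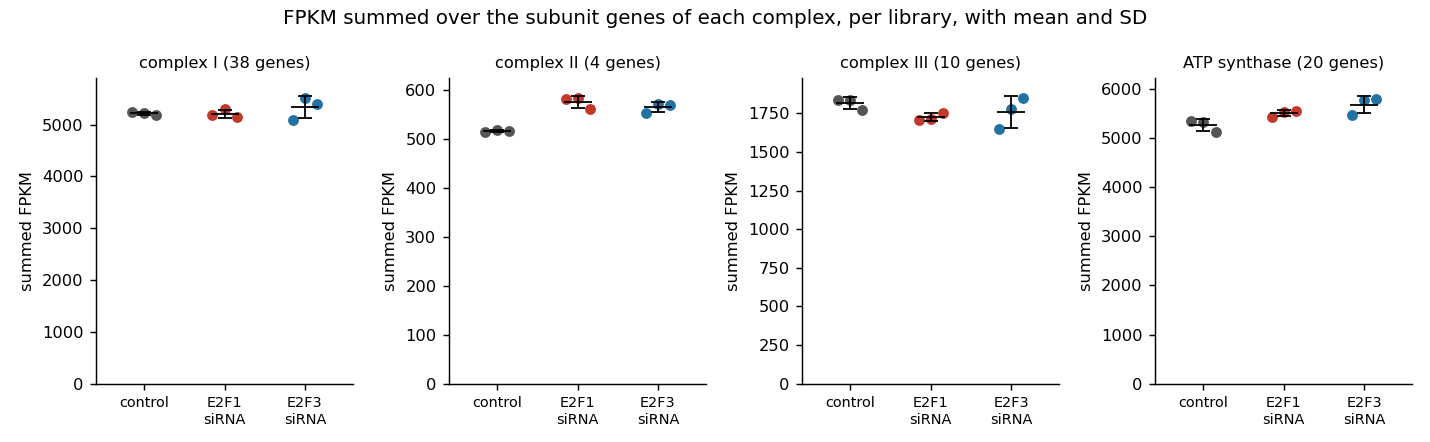
FPKM summed over the subunit genes of complex I, II, III and ATP synthase (y axis, from 0) in each library (points) of the 3 groups, with mean and SD of 3 libraries. Complex II lies between 514 and 517 in control libraries and between 553 and 584 in the siRNA libraries, and complex I overlaps between groups.

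Genes that work with these subunits were followed in 7 lists. Against control, E2F1 siRNA had 20.5% of all genes tested called higher and 17.3% lower, 37.8% in either direction. For E2F3 siRNA these shares were 21.1%, 16.4% and 37.6%. Of 13 tested genes for complex IV and cytochrome c, 4 were called lower after E2F1 siRNA. In that comparison 0 were called higher (limma, also 0 at an unadjusted p under 0.05). For E2F3 siRNA 1 was higher and 4 lower. In either direction 30.8% and 38.5% of the 13 were called in these comparisons. COX6B2, a low-level subunit of complex IV, was lower in both, from 3.82 FPKM in control libraries to 1.57 (log2 change -0.90, adjusted p = 0.00404) and 1.37 FPKM (log2 change -1.03, adjusted p = 0.00204). CYCS, cytochrome c, rose from 223 to 293 FPKM after E2F3 siRNA (log2 change 0.39, adjusted p = 0.000162). Of the 13 subunits encoded in mitochondrial DNA, 4 were called higher and 6 lower after E2F1 siRNA. For E2F3 siRNA 4 were higher and 1 lower. These calls made up 76.9% and 38.5% of the 13, beside 37.8% and 37.6% of all genes. MT-CO2, a catalytic subunit of complex IV, fell by 0.42 (adjusted p = 3.65e-05) after E2F1 siRNA and was higher by 0.50 after E2F3 siRNA than after E2F1 siRNA (adjusted p = 9.07e-06). MT-ND3, a complex I subunit, was higher after both siRNAs (log2 changes 0.18 and 0.22, adjusted p = 0.0219 and 0.00984). With RLE scaling 1 of the 13 was called higher and 6 lower after E2F1 siRNA, and 1 higher and 2 lower after E2F3 siRNA. Of these 13, 9 were called higher and 2 lower between the knockdowns, beside 23.5% and 22% of all genes, with a median log2 difference of 0.24 beside 0.02 over all genes.

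The assembly factors are proteins that help build the complexes, mostly without staying in them. Of 20 complex I assembly factors, 4 were called higher and 6 lower after E2F1 siRNA, and 6 higher and 1 lower after E2F3 siRNA, beside 20.5% and 17.3% of all genes in the first comparison and 21.1% and 16.4% in the second. Their log2 changes lay within 0.2 of 0 for 9 of the 20 after E2F1 siRNA and for 11 after E2F3 siRNA, and over all genes for 7003 and 6951 of 13777. TIMMDC1, which builds the membrane arm, fell from 61.1 FPKM in control libraries to 19.95 FPKM after E2F1 siRNA (log2 change -1.57, adjusted p = 1.47e-06) and measured 67.7 FPKM after E2F3 siRNA. ECSIT, an assembly factor of the same arm, measured 19.5 FPKM in controls, 30.5 under E2F1 siRNA and 29.5 under E2F3 siRNA. NUBPL, which delivers iron-sulfur clusters to complex I, rose by 0.67 (adjusted p = 0.000105) and 0.43 (adjusted p = 0.00181). NDUFAB1, the acyl carrier protein that is itself bound in complex I, lies outside the naming rule and was singled out after its values were seen. It rose by 0.36 (adjusted p = 0.000452) and 0.25 (adjusted p = 0.00429). FOXRED1, a complex I assembly factor, fell by 0.66 (adjusted p = 6.98e-05) after E2F3 siRNA.

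Of 14 assembly factors for complex II, complex III and ATP synthase, 4 were called higher and 0 lower after E2F1 siRNA. At an unadjusted p under 0.05 (limma) these counts were 6 and 0. For E2F3 siRNA 6 were called higher and 3 lower. In either direction 28.6% and 64.3% of the 14 were called, beside 37.8% and 37.6% of all genes tested. FMC1, an ATP synthase assembly factor, went from 3.02 FPKM to 6.90 and 6.64 FPKM (log2 changes 0.97 and 0.92). TMEM70, which helps build the c-ring, fell from 25.8 to 14.1 FPKM after E2F3 siRNA (log2 change -0.83, adjusted p = 3.11e-05). Of 21 complex IV assembly factors, 7 were called higher and 2 lower after E2F1 siRNA. For E2F3 siRNA 8 were higher and 2 lower. These calls made up 42.9% and 47.6% of the 21, beside 37.8% and 37.6% of all genes. PET117 rose in both comparisons (log2 changes 0.53 and 0.58). TACO1, a translational activator of a mitochondrially encoded complex IV subunit, fell by 0.43 (adjusted p = 0.00013) after E2F1 siRNA, and SURF1, an assembly factor, by 0.70 (adjusted p = 0.00804) after E2F3 siRNA. Of 17 genes of the tricarboxylic acid cycle and pyruvate dehydrogenase, 3 were called higher and 0 lower after E2F1 siRNA. At an unadjusted p under 0.05 (limma) these counts were 5 and 1. For E2F3 siRNA 5 were called higher and 4 lower. In either direction 17.6% and 52.9% of the 17 were called, beside 37.8% and 37.6% of all genes tested. DLAT, the acetyltransferase of pyruvate dehydrogenase, fell from 39.9 to 12.4 FPKM after E2F3 siRNA (log2 change -1.62, adjusted p = 2.17e-07).

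Among 14 tested regulators of respiratory genes, 7 were called higher and 0 lower after E2F1 siRNA (limma, 10 and 0 at an unadjusted p under 0.05), and 3 higher and 3 lower after E2F3 siRNA. TFAM, which packs and transcribes mitochondrial DNA, fell from 89.6 FPKM in control libraries to 18.8 FPKM after E2F3 siRNA (log2 change -2.20, adjusted p = 2.18e-08) and measured 95.6 FPKM after E2F1 siRNA (log2 change 0.09, adjusted p = 0.280). In the same E2F3 siRNA libraries 4 of the 13 mitochondrially encoded subunits were called higher and 1 lower than in control. GABPB2, a partner subunit of GABPA, rose after both siRNAs (log2 changes 0.51 and 0.73, adjusted p = 0.00664 and 0.000948). NRF1, singled out because its motif is described above, had log2 changes of 0.30 (adjusted p = 0.0734) and -0.07 (adjusted p = 0.666). Between the knockdowns 0 of the 14 regulators were called higher and 9 lower with E2F3 siRNA (limma, also 0 and 9 at an unadjusted p under 0.05), beside 23.5% and 22% of all genes. Their median log2 difference was -0.27 beside 0.02 over all genes.

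**Figure D4:**
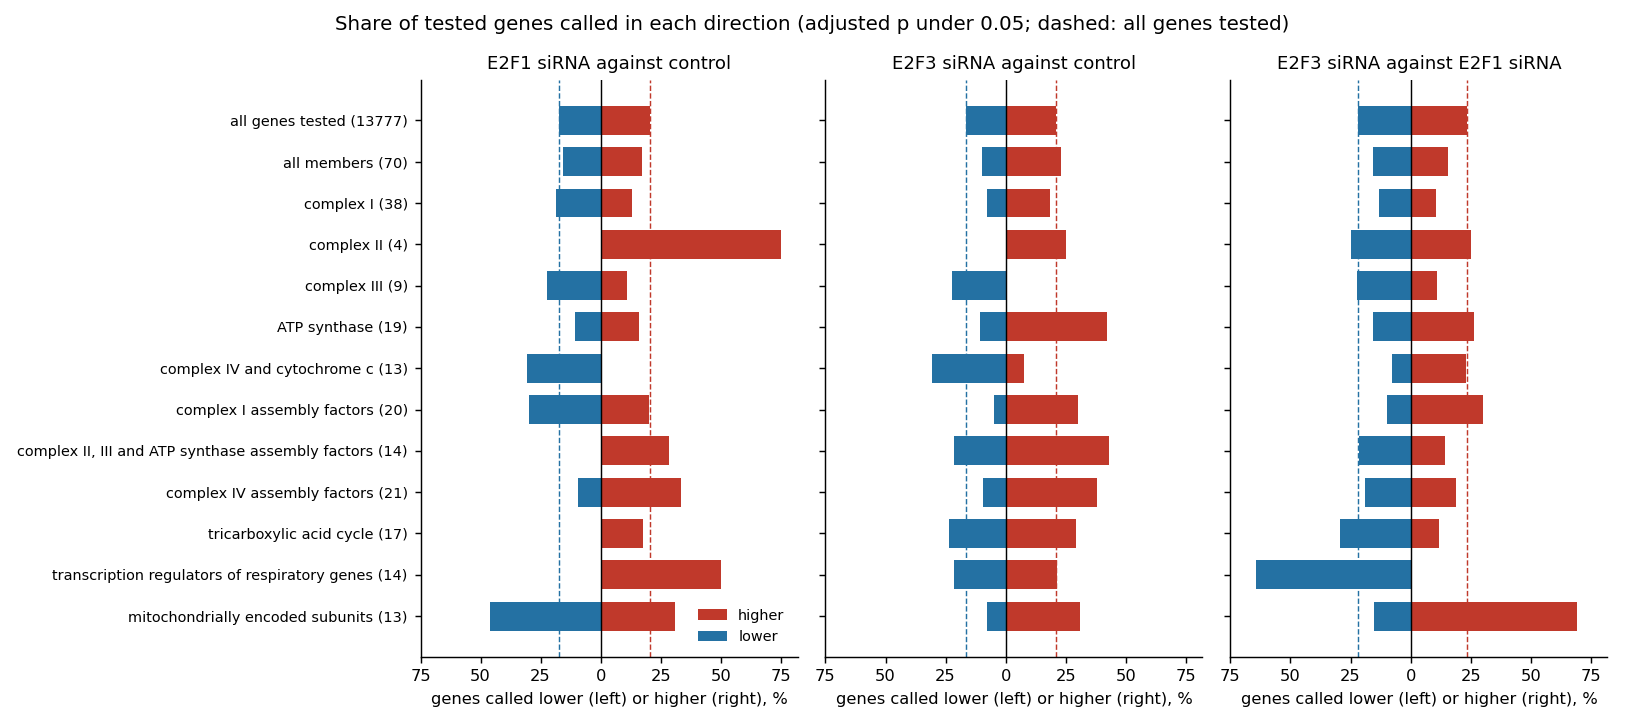
Share of tested genes called higher (right, red) or lower (left, blue) at an adjusted p under 0.05 (x axis, percent) for all genes tested, for the subunit genes by complex and for the 7 lists of related genes (y axis, number tested in parentheses), in the 3 comparisons. The dashed lines give all genes tested, 20.5% and 17.3% for E2F1 siRNA, and the 70 members stand near them at 17.1% and 15.7%.

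Reads of some members may be shared with other annotated genes. Exons of 42 of the 72 members overlap those of another gene, and 36 have pseudogenes named after them, of which 3 members (SDHA, UQCRFS1 and UQCRB) have pseudogenes that sum to at least 1 FPKM. For ATP5PB the overlapping gene is WDR77 on the other strand, at 10.8% of the level of ATP5PB in control libraries, and for SDHD it is TIMM8B at 36.9%. For NDUFB6 it is SMIM27 at 25.8%. How far these overlaps enter the values was not tested.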

How the data were processed

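Bulk RNA from 9 HK1 libraries, 3 per group, was examined. The FPKM values per gene were deposited by the authors with 2 decimals and no counts, per the file headers. Trimmomatic, TopHat, HISAT2, HTSeq, DESeq and GRCh38 are named, per the submitters' processing notes, but no source used here gives their versions or roles. Of 59107 entries per file 726 assembled loci were left out. Identifiers were matched to GENCODE 29, 56933 exactly, 1328 after dropping the version and 120 not at all.

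log2(FPKM + 1) was fitted for the 13777 genes that reached 1 FPKM in 3 or more libraries, with limma 3.58.1 (R 4.3.3, trend, not robust), with a mean for each of the 3 groups. All 3 comparisons came from that fit. Tests were two-sided, p-values were adjusted after Benjamini and Hochberg across every gene fitted, and 0.05 was the threshold. Log2 changes on this scale understate those of low genes. The fit was checked on simulated data. No 2 libraries shared more than 2.873% of their values.

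The genes named were all complex II genes, up to 3 called members with the largest rise and fall per other complex and comparison, members called in both knockdowns, paralog sets, the highest and lowest member per complex, ATP5IF1, members that failed the filter, and per list the called gene with the largest rise and fall. Other names were chosen after their values were seen, and not every list gene so chosen is printed. The members and lists were chosen with earlier results of these data known, and the subunit classes were drawn up by textbook role after the values were seen. A member and a list gene stay in the counts but are not reported by name here. List genes were matched by symbol, and the symbols CYCT and DMAC2L found no match, which does not mean that the genes were unmeasured under another symbol. Promoters came from RefSeq. Alternatives were RLE and upper-quartile scaling, a pseudocount of 0.1, a filter of 5 FPKM or none, only the libraries compared, a replicate block, a length correction, robust fitting, an adjusted p under 0.01, and leaving out each library.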

Additional observations from a re-analysis of the deposited data

Results flagged for a closer look

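For the members given here the effects of the 2 knockdowns differed in the test of E2F3 siRNA against E2F1 siRNA (limma, adjusted over all genes tested). The difference equals that between the 2 changes against the shared control libraries, and 3 libraries stand on each side. It is given as log2 of E2F3 siRNA over E2F1 siRNA.

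In complex III the difference was 2.17 for UQCR11 (adjusted p = 1.31e-07), -0.56 for CYC1 (adjusted p = 2.11e-05) and -0.49 for UQCRC1 (adjusted p = 0.000211). In complex I it was 0.37 for NDUFB4 (adjusted p = 0.000253) and -0.24 for NDUFA11 (adjusted p = 0.00564). NDUFA6 differed by 0.75 (adjusted p = 0.0324), NDUFS3 by -0.27 (adjusted p = 0.0255) and NDUFS7 by -0.27 (adjusted p = 0.0369), and these calls were lost in 3, 4 and 4 of the 9 fits that left out 1 library.

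In ATP synthase the difference was 0.65 for ATP5MPL (adjusted p = 6.84e-06), 0.27 for ATP5PO (adjusted p = 0.000280), -0.79 for ATP5F1D (adjusted p = 0.00101) and -0.15 for ATP5F1B (adjusted p = 0.00711). ATP5MC2 differed by 0.23 (adjusted p = 0.0306), ATP5MF by 0.12 (adjusted p = 0.0479) and ATP5MC1 by -0.16 (adjusted p = 0.0495), with calls lost in 3, 6 and 7 of these fits. In complex II SDHC differed by 0.16 (adjusted p = 0.0212) and SDHD by -0.13 (adjusted p = 0.0397), with calls lost in 4 and 6 of them.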

How the results depend on the processing

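No named gene's log2 change that was called reversed its sign under any alternative run. After E2F1 siRNA the 11 members called lower became 7 with upper-quartile scaling, 6 with no filter and 4 at an adjusted p under 0.01. After E2F3 siRNA the 16 members called higher became 8 with RLE scaling and 8 at an adjusted p under 0.01, and the 7 called lower became 4 at that threshold. The members' median log2 change after E2F3 siRNA, 0.0396, became -0.0157 with RLE scaling and 0.0069 with a length correction. Between the knockdowns the 11 members called higher became 7 at an adjusted p under 0.01, the 11 called lower became 6 at that threshold and 6 with no filter, and the median of 0.0261 became -0.0127 with RLE scaling and -0.0070 with upper-quartile scaling. Over all genes the median after E2F3 siRNA, 0.0417, became -0.0084 with RLE scaling and 0.0179 with a length correction. Between the knockdowns the all-gene median of 0.0153 became -0.0192 with RLE scaling and -0.0136 with upper-quartile scaling. All genes called higher after E2F3 siRNA went from 2913 to 2258 with RLE scaling. The cause of these shifts was not tested, except that a stricter threshold calls fewer genes by construction.

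With each library left out in turn, the members called lower after E2F1 siRNA ranged from 6 to 11, with 6 without control replicate 1 or E2F1 siRNA replicate 1 and 7 without E2F1 siRNA replicate 3. Those called higher ranged from 9 to 14. After E2F3 siRNA the range was 11 to 18 higher and 5 to 10 lower. Between the knockdowns it was 8 to 16 higher and 7 to 9 lower, with 7 lower without E2F1 siRNA replicate 1 or 2 or E2F3 siRNA replicate 1 or 3, and the median ranged from 0.0089 to 0.0615.

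The replicate numbers did not pair the libraries (correlations of same-numbered deviations from -0.106 to 0.112). With a replicate block 11 members were called higher and 10 lower after E2F1 siRNA, 15 and 6 after E2F3 siRNA, and 12 and 10 between the knockdowns. Absolute depth is unknown, so no counting error can be given.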
